A study of Mus musculus with 360 samples.

Results

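The T-lineage genes described here are 9 genes of the T cell programme that were looked up by symbol in the expression table of mouse C1498 cells: Cd3e, Cd3g, Cd3d, Cd247, Cd7, Cd96, Ms4a4b, Slfn2 and Thy1. All 9 were found among the 24781 genes of the table. C1498 is a cultured mouse line that the labels call acute myeloid leukemia. Its cells were warmed to 45 °C for 10 min, or to 37 °C as the control, and single cells were then observed and picked under a microscope. Each of the 360 samples is the RNA of 1 picked cell. Cells were taken at -1 h (before heating) and at 1, 5, 10 and 15 h from the end of heating, and in that order the groups of the 37 °C arm held 11, 11, 6, 6 and 11 cells. The 45 °C arm held 6 cells before heating, 13 after 1 h, 52 after 10 h and 21 after 15 h, and its 5 h group, by far the largest, held 61.9% of all 360 cells. The 37 °C groups and the 45 °C arm before heating are called unheated below (6 groups, 51 cells), and the later 45 °C groups are called heated (4 groups, 309 cells). No allele, drug or second cell line is named for any group.

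T cells recognise antigen through a receptor that cannot signal by itself. The CD3 chains epsilon, gamma and delta (Cd3e, Cd3g, Cd3d) and the zeta chain (Cd247) sit beside it in the membrane and carry the tyrosine motifs that are phosphorylated when antigen binds. CD7, CD96 and Thy1 are surface proteins of T cells and of some other lymphocytes, Ms4a4b encodes a four-pass membrane protein of T cells, and Slfn2, of the Schlafen family, is needed for T cells to stay quiescent.

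RNA was primed at its poly(A) end and carried a molecular barcode, so counts are numbers of molecules (UMIs) per gene and cell. The median cell held from 18741 UMIs in the 45 °C 10 h group to 40544 in the 37 °C group before heating, and single cells had between 1060 and 122196. Levels are given in CPM, the UMIs of a gene summed over the cells of a group per 1000000 UMIs of that group. The labels name no separate cultures, so each group was read as 1 sample. No test between groups was possible, and the 95% intervals (exact Poisson for a level, exact Clopper-Pearson for a share or a ratio) cover counting error only, not the spread between cells or cultures. Because total RNA per cell is not known from CPM, a lower level here is a lower share of the molecules counted.

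The unheated cells carried a partial T cell receptor apparatus: much Cd3e and Cd3g, little Cd3d and almost no Cd247. Over the 51 unheated cells, Cd3g stood at 230.1 CPM (95% interval 209.1 to 252.6) and Cd3e at 199.2 CPM (179.7 to 220.3). A UMI of Cd3e was found in 51 of these cells and of Cd3g in 49. Cd3d, in contrast, stood at 4.71 CPM (2.15 to 8.93) and was seen in 9 cells with 9 UMIs, and Cd247 at 1.05 CPM (0.127 to 3.78) with 2 UMIs in 2 cells. Cd3g thus had 48.9 times the level of Cd3d, and 27.1 times when each level was divided by the length of the gene's exons. Poly(A) priming counts a molecule once whatever its length, so the value without that division is the one the assay gives. The constant-region genes of the receptor itself (Trac, Trbc1, Trbc2, Trdc and Tcrg-C1) were looked up by these symbols and were not found in the expression table. Whether the cells carried RNA of the receptor chains could therefore not be read here. Ptcra, the invariant partner of the beta chain in immature T cells, stood at 5.23 CPM over the unheated cells (0 to 13.9 by group) and at 10.3, 16.4, 14.8 and 17.2 CPM in the heated groups in order of time.

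Cd3g and Cd3d are neighbours that are transcribed away from each other. In mm10, Cd3g lies on the minus strand at chr9:44969572-44980431 and Cd3d on the plus strand at chr9:44981786-44987339, so that their annotated starts are 1355 bases apart. Cd3e follows on the minus strand at chr9:44998740-45009627, and Cd247 lies on another chromosome (chr1:165788681-165877277, plus strand). The 250 bases before the start of the abundant Cd3g (chr9:44980432-44980681, minus strand) and of the scarce Cd3d (chr9:44981536-44981785, plus strand) are shown for comparison, from RefSeq's GRCm38.p6 promoters, 5′ to 3′.
Cd3g: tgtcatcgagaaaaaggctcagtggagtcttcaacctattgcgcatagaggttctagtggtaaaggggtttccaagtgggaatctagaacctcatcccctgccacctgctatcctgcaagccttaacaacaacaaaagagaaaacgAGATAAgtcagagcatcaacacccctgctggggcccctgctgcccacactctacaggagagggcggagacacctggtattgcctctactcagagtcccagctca
Cd3d: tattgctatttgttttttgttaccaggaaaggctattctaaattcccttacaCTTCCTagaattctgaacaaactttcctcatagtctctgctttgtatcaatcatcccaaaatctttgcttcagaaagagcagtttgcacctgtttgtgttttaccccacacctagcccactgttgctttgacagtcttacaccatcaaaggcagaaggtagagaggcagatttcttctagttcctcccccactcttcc
Capitals mark matches, on either strand, of 5 short motifs: the ETS core AGGAAG, the Runx core TGTGGT, the GATA core AGATAA, the TATA box TATAAA and a heat shock element GAANNTTC, none of which overlapped another in these windows. Among the 32851 RefSeq promoter windows of this length, 29.5% held the ETS core, 14.05% the Runx core, 9.99% the GATA core, 12.4% the TATA box and 6.69% the heat shock element. The Cd3g window held 1 GATA core, from -104 to -99 with the first transcribed base counted as 0. The Cd3d window held 1 ETS core, from -198 to -193. A match describes the letters and shows no binding.

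Cd3e was nearly level across the groups. In order of time, its level was 204.9, 204.7, 147.7, 190.4 and 215.7 CPM in the 37 °C arm. In the 45 °C arm it was 209.6 CPM before heating and 242.5, 217.1, 190.8 and 187.2 CPM afterwards. From the highest group (45 °C 1 h) to the lowest (37 °C 5 h), each group's interval overlapped that of the next. Groups further apart in this order need not overlap. The intervals of 45 °C 5 h (206.1 to 228.4) and 37 °C 5 h (103.4 to 204.4) did not. Per cell, Cd3e in the heated cells of the 5 h group ranged from 0 to 742 CPM with a median of 207.2, and in the 6 control cells from 32.3 to 198.6 CPM with a median of 165.7, so the cells overlapped widely. At 5 h the log2 ratio of heated over 37 °C cells was 0.54 (0.08 to 1.08). The control was the lowest of all 10 groups, however, and with the 45 °C cells from before heating as control the ratio was 0.03.

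Cd3g stood lower the longer after heating the cells were taken. In the 45 °C arm its level was 254.5 CPM before heating and 220.6, 193.3, 151.04 and 111.9 CPM at the 4 later times. In the 37 °C arm it was 233.5, 214.8, 205.1, 230.8 and 242.6 CPM in order of time. The heated groups at 5, 10 and 15 h were thus below all 6 unheated groups, as were 18.5%, 15.3% and 13.3% of the genes measured at these times. In the order of levels the only neighbours whose intervals did not overlap were 45 °C 5 h (183.1 to 204.2) and 45 °C 10 h (127.7 to 177.4).

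At 15 h Cd3g was 1.11 lower on the log2 scale than in the 37 °C group, a ratio of -1.11 (-1.56 to -0.68). Per cell, the 21 heated cells at 15 h ranged from 0 to 326 CPM with a median of 95.4, and the 11 control cells from 0 to 437 CPM with a median of 259. At this time 2.21% of the 6340 genes measured were at least 2-fold lower, and Cd3g was the only gene of the 6 measured members that was. At 10 h the ratio was -0.63 (-1.12 to -0.07), and it rested on control cell 2, which held 50% of the control UMIs of Cd3g: without it the ratio was 0.02. At 5 h it was -0.10 (-0.49 to 0.35). General leukocyte genes stood lower at the same times as Cd3g: of 9 measured, 7 were lower at 10 h (median -0.73) and 7 at 15 h (median -0.27), where 49.7% and 51.7% of all genes were. At 15 h the log2 ratios were -0.84 for Coro1a, -0.77 for Arhgdib and -0.56 for Rac2, and at 10 h -1.05, -1.14 and -0.87. Their part in the lower Cd3g was not tested.

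**Figure D1:**
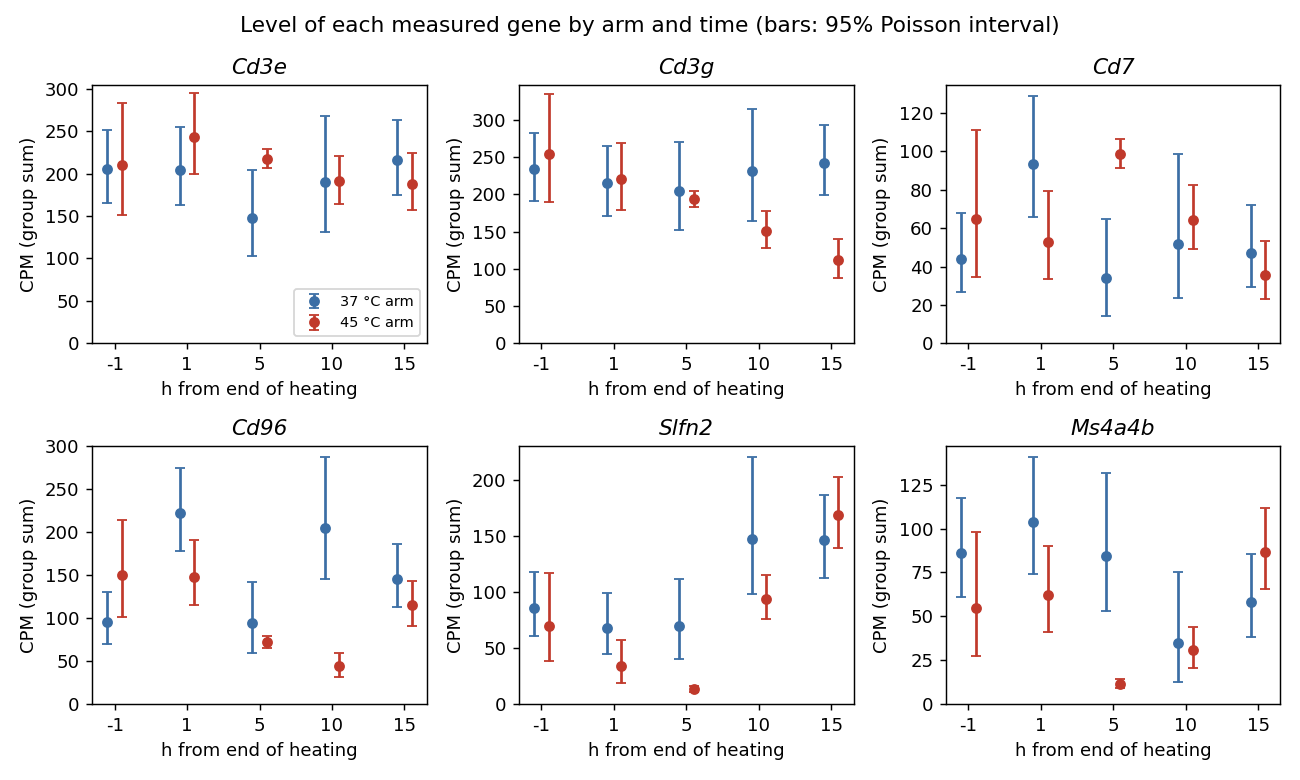
Level of the 6 measured genes in CPM (y axis, from 0) by time in h from the end of heating (x axis), for the 37 °C arm (blue) and the 45 °C arm (red). Points are group sums and bars are 95% Poisson intervals of counting error. Cd3g is at 111.9 CPM at 15 h in the heated cells, and Slfn2 and Ms4a4b are at 13.5 and 11.6 CPM at 5 h.

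The balance of the CD3 chains was also read inside each group, where no total enters. This ratio was chosen after the levels had been seen. In the 6 unheated groups there were between 1.05 (37 °C 1 h) and 1.39 (37 °C 5 h) UMIs of Cd3g for each UMI of Cd3e. In the heated groups there were, in order of time, 0.91 (0.68 to 1.21), 0.89 (0.83 to 0.96), 0.79 (0.63 to 0.99) and 0.60 (0.44 to 0.80). All 4 heated ratios lay under the 6 unheated ones.

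Summed over the unheated cells the ratio was 1.15 (1.00 to 1.33), and over the heated cells 0.86 (0.81 to 0.92). Among cells with at least 5 UMIs of the pair, Cd3g exceeded Cd3e in 30 of 49 unheated cells (61.2%) and in 94 of 264 heated cells (35.6%). The separation of the groups depended on cell values that were not whole. The setting with whole values only left out each such value entirely. In the 45 °C arm before heating this took out 15.5 UMIs of Cd3g in cell 2, and at 45 °C 15 h 25.5 UMIs of Cd3e in cell 3. With whole values only, the 45 °C arm before heating stood at 0.79. The heated groups then stood at 0.97, 0.90, 0.79 and 0.75 in order of time. With cells thinned to 5000 UMIs, which leaves few UMIs of the pair, the unheated groups ranged from 0.5 (45 °C arm before heating) to 8 (37 °C 5 h) and the heated ones from 0.375 to 1, so that they overlapped. With 1 cell left out at a time the heated ratios still lay under the unheated ones. The lowest unheated ratio was then 0.95 (37 °C 10 h without cell 2), above the highest heated ratio with all cells, 0.91. The highest heated ratio was 0.97 (45 °C 1 h without cell 4), under the lowest unheated ratio with all cells, 1.05. With both of these cells left out the order would not hold, as 0.95 lies under 0.97. At 15 h the ratio lay between 0.54 and 0.68 with any single cell left out.

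**Figure D2:**
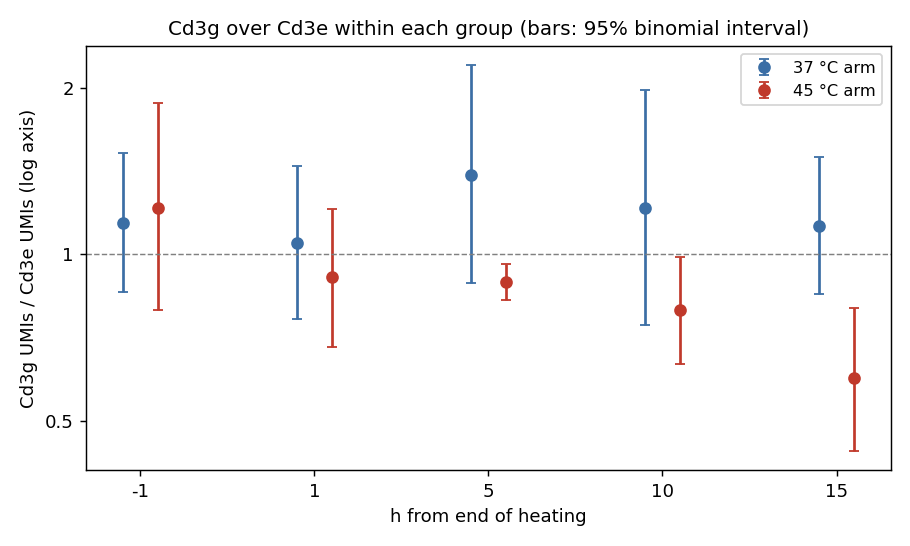
UMIs of Cd3g divided by UMIs of Cd3e within each group (y axis, log scale) by time in h from the end of heating, for the 37 °C arm (blue) and the 45 °C arm (red), with 95% binomial intervals. The unheated groups lie between 1.05 and 1.39, and the heated groups run from 0.91 at 1 h to 0.60 at 15 h.

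Cd3d and Cd247 remained scarce in every group. Cd3d had 1 to 3 UMIs in each unheated group and 1, 42, 7 and 2 in the heated groups in order of time, and its level lay between 2.20 and 8.20 CPM throughout. Cd247 had 11 UMIs in the heated cells at 5 h (1.62 CPM, 0.81 to 2.89) and 0 or 1 in each of the other groups. In the 4 unheated groups without a Cd247 UMI, 3 counts, the number that a count of 0 allows, would come to 6.61 CPM in the deepest (37 °C before heating) and 17.3 CPM in the shallowest (37 °C 10 h). Differences between groups in these genes were therefore not detectable at this depth.

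Thy1 (chr9:44043384-44048579, plus strand), a glycolipid-anchored surface protein by which mouse T cells are often recognised, was close to absent. It had 24.5 UMIs in 4 of the 360 cells. Of these, 13 were in 1 cell and 10.5 in another of the heated 5 h group, at 460.4 and 267.7 CPM of Thy1. The other 2 cells had 0.5 UMI each, of which 1 was unheated (37 °C 5 h cell 1). The cell with 13 UMIs also held 3 UMIs of Cd3e, 5 of Cd3g and 1 of Cd96, and the cell with 10.5 held 8.5 of Cd3e, 5 of Cd3g and 2 of Ms4a4b. Whether the fractional Thy1 counts are reads shared with another gene was not tested.

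Slfn2 and Ms4a4b, the quiescence gene and the membrane gene, stood far lower in the heated cells at 5 h than in any other group, and were back within or above the unheated range at 15 h. Slfn2 stood at 13.5 CPM (10.9 to 16.6) in the heated cells at 5 h and at 69.7 CPM (40.6 to 111.7) in the control cells of that time, a log2 ratio of -2.40 (-3.12 to -1.53). Ms4a4b stood at 11.6 CPM (9.19 to 14.5) against 84.1 CPM (53.3 to 131.7), a log2 ratio of -2.88 (-3.60 to -2.12). For both genes the interval at 5 h lay under the interval of the next lowest group. With any single cell left out, the Slfn2 ratio stayed between -2.69 and -2.17 and that of Ms4a4b between -3.24 and -2.70.

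Over time, the level of Slfn2 was 69.9 CPM in the 45 °C arm before heating and then 34.5, 13.5, 93.9 and 168.5 CPM. The 37 °C groups were at 85.9, 68.2, 69.7, 147.2 and 146.03 CPM in order of time. Slfn2 in the heated cells was below all unheated groups at 1 and 5 h, inside their range at 10 h and above it at 15 h. At 1 h its log2 ratio was -0.96 (-2.001 to -0.023). At 10 h it was -0.67 (-1.32 to 0.01), or 0.17 without 37 °C 10 h cell 1, which held 56.9% of the control UMIs of Slfn2, and at 15 h it was 0.20 (-0.25 to 0.67).

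The level of Ms4a4b was 54.9 CPM in the 45 °C arm before heating and then 62.1, 11.6, 30.6 and 86.5 CPM. The 37 °C groups were at 85.9, 103.6, 84.1, 34.6 and 58.4 CPM in order of time. At 1 h its log2 ratio was -0.73 (-1.50 to -0.0039), or -1.45 without 45 °C 1 h cell 3, which held 44.4% of the heated UMIs of Ms4a4b, and 0.14 with the 45 °C cells from before heating as control. At 10 h heated and control levels were both low, at a log2 ratio of -0.27 (-1.47 to 1.38), which turned to 0.83 when control cell 5 was left out and moved to -0.81 when heated cell 22 was. At 15 h it was 0.55 (-0.12 to 1.29).

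**Figure D3:**
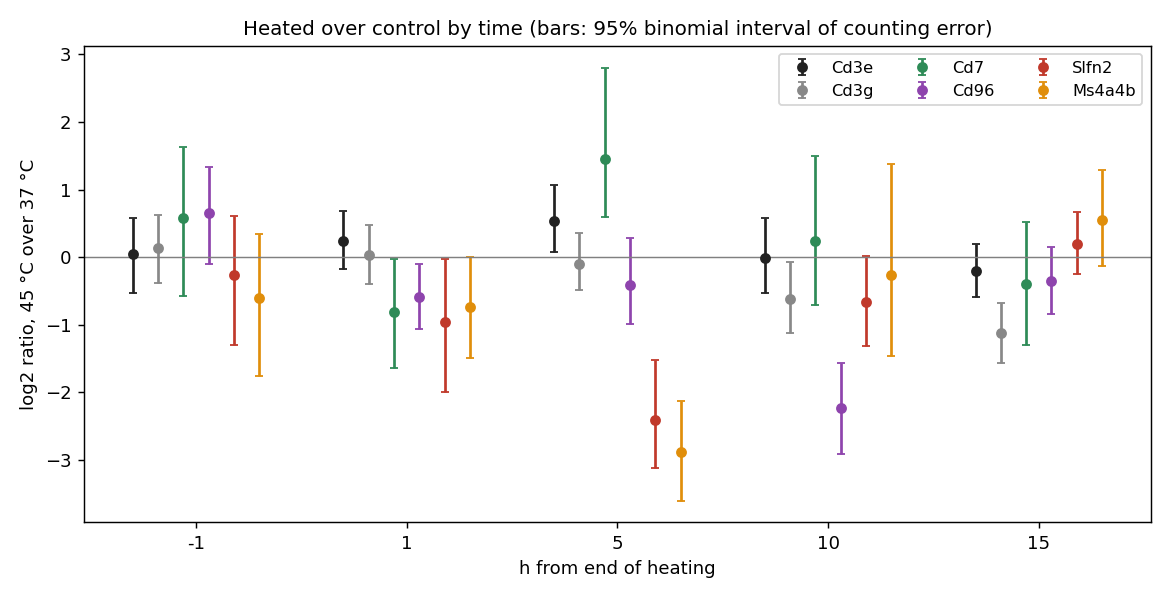
Log2 ratio of 45 °C over 37 °C (y axis) by time in h from the end of heating for the 6 measured genes, with 95% binomial intervals of counting error. At 5 h Slfn2 and Ms4a4b lie at -2.40 and -2.88 while Cd7 lies at 1.46, and at 10 h Cd96 lies at -2.23.

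The difference at 5 h also showed in how many cells had any molecule of these genes. Of the heated cells at 5 h, 26.01% had a UMI of Slfn2 and 18.4% of Ms4a4b, against 100% and 83.3% of the 6 control cells. The median of Slfn2 per cell was 0 CPM in the heated cells (range 0 to 467) and 66.4 CPM in the control cells (18.1 to 122.3). Median Ms4a4b was 0 CPM (0 to 260.1) against 98.2 CPM (0 to 154.1). With every cell thinned to 5000 UMIs, the share with Slfn2 was 7.21% (4.17% to 11.4%) of the heated cells and 50% (11.8% to 88.2%) of 6 control cells. For Ms4a4b these shares were 3.60% (1.57% to 6.98%) and 16.7% (0.421% to 64.1%), so its intervals overlapped. All these cells are of 1 line, so no cell type that should lack these genes was there to give a background.

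At 15 h a UMI of Slfn2 was found in 71.4% of the heated and 90.9% of the control cells, and of Ms4a4b in 57.1% and 54.5%. The heated cells at 15 h ranged from 0 to 489 CPM of Slfn2 with a median of 101.2, and the control cells from 0 to 374 CPM with a median of 116.1.

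The 250 bases before the starts of the 2 genes are printed because both levels were lowest in the heated cells at 5 h (Slfn2, chr11:83064862-83065111, plus strand; Ms4a4b, chr19:11443308-11443557, plus strand; RefSeq, GRCm38.p6), with capitals as before.
Slfn2: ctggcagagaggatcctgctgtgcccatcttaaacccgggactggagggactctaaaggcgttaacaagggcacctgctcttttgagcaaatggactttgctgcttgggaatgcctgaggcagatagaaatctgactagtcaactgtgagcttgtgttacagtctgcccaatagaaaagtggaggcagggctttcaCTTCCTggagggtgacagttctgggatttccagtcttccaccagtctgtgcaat
Ms4a4b: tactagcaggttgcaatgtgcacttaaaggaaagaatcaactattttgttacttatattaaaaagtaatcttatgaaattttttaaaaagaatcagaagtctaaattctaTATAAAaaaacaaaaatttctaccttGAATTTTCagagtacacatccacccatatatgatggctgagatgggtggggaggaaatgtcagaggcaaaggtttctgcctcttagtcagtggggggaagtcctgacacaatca
The Slfn2 window held 1 ETS core (-54 to -49) and none of the other motifs. The Ms4a4b window held 1 TATA box (-140 to -135) and 1 heat shock element (-114 to -107), and neither an ETS nor a Runx core. The pair thus shared none of the 5 motifs in these windows.

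**Figure D4:**
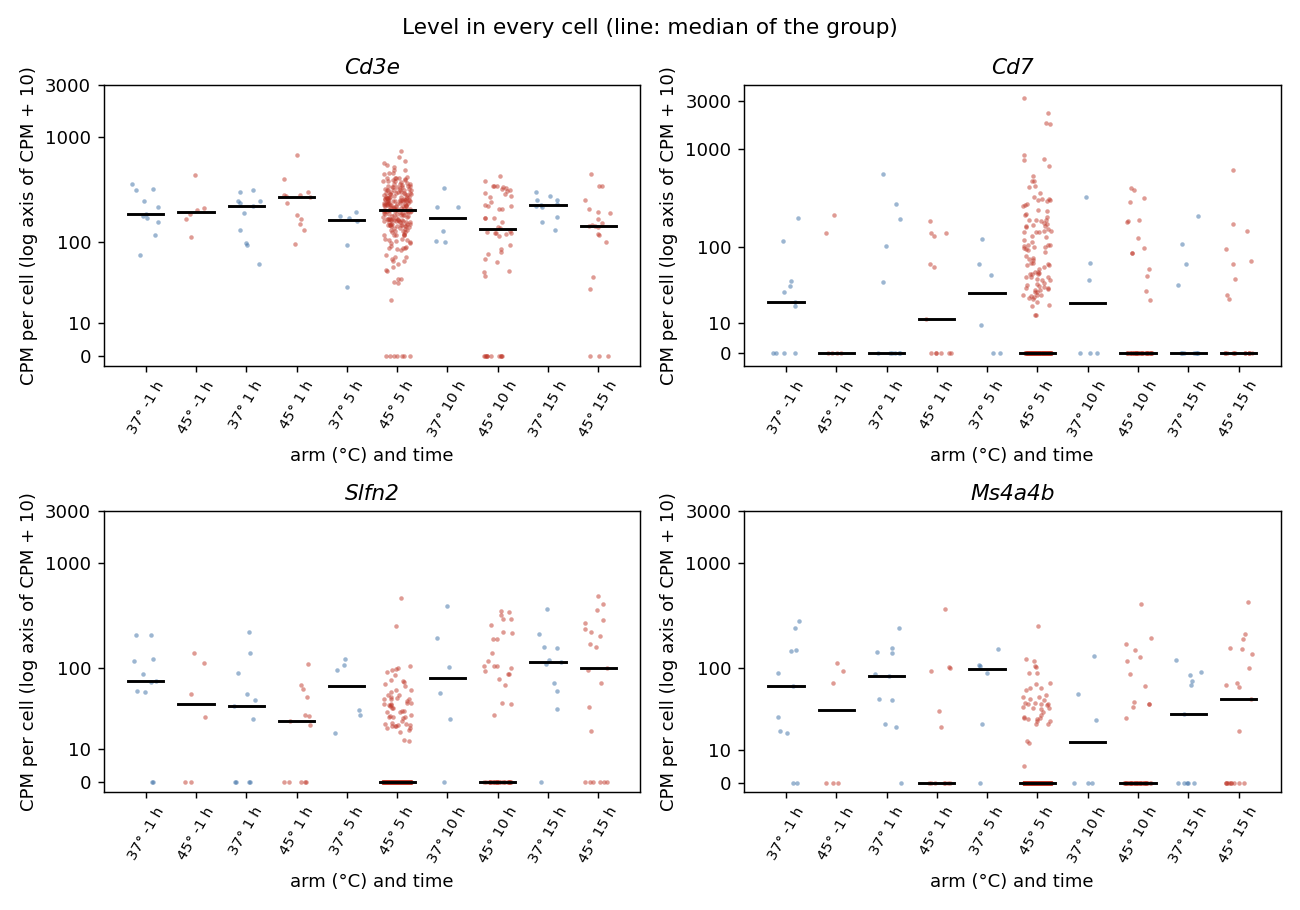
CPM of Cd3e, Cd7, Slfn2 and Ms4a4b in every cell (y axis, log scale of CPM + 10) by arm and time (x axis), where each point is 1 cell and the black line is the group's median. The Slfn2 and Ms4a4b medians are 0 in the heated cells at 5 h, and 4 cells of that group exceed 1000 CPM of Cd7.

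Cd96 (chr16:46035657-46120251, minus strand), an adhesion receptor that binds CD155, stood lower in heated cells at 10 h. It was at 43.9 CPM (31.8 to 59.1) in the heated cells and at 204.9 CPM (145.5 to 287.6) in the controls of that time, a log2 ratio of -2.23 (-2.92 to -1.56). The 37 °C groups were at 95.8, 222.4, 94.3, 204.9 and 146.03 CPM in order of time, so the choice of control matters: against all 6 unheated groups the ratio was -1.75. Against the 37 °C 10 h control, the ratio was -2.97 with cells thinned to 5000 UMIs and -1.53 with whole values only. The latter setting left out the 14.5 UMIs of control cell 2, which were 40.8% of the control UMIs of Cd96. In the 45 °C arm Cd96 was at 149.7 CPM before heating and then at 148.2, 72.1, 43.9 and 114.8 CPM. The heated groups at 5 and 10 h were below all unheated groups, and 45 °C 10 h did not overlap its next neighbour, 45 °C 5 h, in their intervals.

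Per cell, the 52 heated cells at 10 h ranged from 0 to 214.6 CPM of Cd96 with a median of 0, and the 6 control cells from 0 to 494 CPM with a median of 191.995. At 5 h the log2 ratio was -0.42 (-0.99 to 0.28), and against all unheated groups -1.05. At 1 h it was -0.58 (-1.06 to -0.10), but 0.00083 against all unheated groups. Heated cells at 10 h were also shallower (median 18741 UMIs) than their controls (29604). Without the 5 heated cells under 5000 UMIs, Cd96 at 10 h moved by less than its counting interval. In cells thinned to 5000 UMIs, 17.02% (7.65% to 30.8%) of 47 heated and 66.7% (22.3% to 95.7%) of 6 control cells had a UMI of Cd96.

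Cd7 (chr11:121036747-121039418, minus strand), an immunoglobulin-family receptor of early T-lineage cells, was spread very unevenly over cells. In the heated group at 5 h it stood at 98.7 CPM (91.4 to 106.4), the highest of the 10 groups, and in the controls at 33.8 CPM (14.2 to 64.7), the lowest, with a log2 ratio of 1.46 (0.60 to 2.81). Yet a UMI of it was found in 47.1% of the heated cells and 66.7% of the 6 controls, and the median heated cell had 0 CPM while the highest had 3211. Of the 671.8 UMIs of Cd7 in the heated cells at 5 h, 19.7% were in cell 130 alone, and 10 cells held 50% of them. The same share of the UMIs was held by 64 cells for Cd3e, 59 for Cd3g, 41 for Cd96, 16 for Slfn2 and 9 for Ms4a4b, the last 2 of which had far fewer UMIs than Cd7.

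The heated level of Cd7 at 5 h was 80.1 CPM without cell 130. The ratio was 2.14 without 37 °C 5 h cell 6 and 0.55 with the 45 °C cells from before heating as control. In cells thinned to 5000 UMIs the variance of Cd7 over the heated 5 h cells was 4.63 times its mean, where 652 genes of like mean had a median of 1.09. The same quotient was 1.00 for Cd3e, 1.05 for Cd3g and 1.11 for Cd96, and it was 1.42 for Slfn2 and 1.50 for Ms4a4b, whose like-mean genes had medians of 1.02 and 0.95. For Thy1, with its UMIs in few cells, it was 4.13.

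An uneven Cd7 was also seen without heat: 25 of the 51 unheated cells had a UMI, and 6 of them held 50% of its UMIs. Across groups, Cd7 stood at 44.1, 93.5, 33.8, 51.9 and 47.2 CPM in the 37 °C arm and at 64.9, 52.9, 98.7, 64.3 and 35.8 CPM in the 45 °C arm, in order of time, and each neighbour in the order of levels overlapped the next. The highest and the lowest group, 45 °C 5 h and 37 °C 5 h, did not overlap each other. At 1 h the log2 ratio was -0.81 (-1.64 to -0.03), or -0.33 without 37 °C 1 h cell 10. At 10 h it was 0.24 (-0.71 to 1.50), or 1.52 when control cell 4 was left out.

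Over the heated cells at 5 h, the members did not go together from cell to cell. In cells thinned to 5000 UMIs, Pearson's r was -0.10 between Cd3e and Cd3g, 0.08 between Cd3e and Cd7, 0.08 between Cd7 and Cd96 and 0.0049 between Cd3g and Cd96. With about 1 UMI of Cd3e per thinned cell (mean 1.12), sampling alone keeps such values near 0, so they do not show that the genes vary independently.

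Of the 9 members, 6 passed the minimum for a ratio (20 UMIs in both groups together and 10 CPM in either) at every time, and Cd3d, Cd247 and Thy1 passed at none. At 5 h, 4 of the 6 stood below all unheated groups (Cd3g, Cd96, Slfn2, Ms4a4b), where 18.5% of the 7594 measured genes did. The other 2, Cd3e and Cd7, stood above them all, where 7.35% of genes did. At that time 4 of the 6 had a ratio below 0, as did 63.2% of all genes. Slfn2 and Ms4a4b were at least 2-fold lower than the control, as were 15.3% of all genes, and Cd7 was at least 2-fold higher, as were 6.2%. The heated group at 5 h had 6809101 UMIs, far more than any unheated group, so its levels carry little counting error while the range of the unheated groups does.

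At 10 h, 3 of the 6 (Cd3g, Cd96, Ms4a4b) were below all unheated groups, against 15.3% of 6434 genes, and Cd96 was at least 2-fold lower, against 7.24%. None was above them all or at least 2-fold higher (21.6% and 11.8% of genes), and 5 of the 6 ratios were below 0 (49.7% of genes). At 1 h, Slfn2 was below and Cd3e above all unheated groups, against 16.6% and 9.21% of 5264 genes. There 4 ratios were below 0 (63% of genes) and none passed 2-fold in either direction (6.29% of genes lower, 1.44% higher). At 15 h, Cd3g was below and Slfn2 above, against 13.3% and 15.8% of genes. There 4 ratios were below 0 (51.7% of genes) and none was at least 2-fold higher (4.04%). Before heating, 2 of the 6 ratios were below 0 (49% of 4791 genes) and none passed 2-fold (4.53% of genes lower, 2.61% higher). The median log2 ratio of the 6 was 0.09, -0.66, -0.26, -0.45 and -0.28 in order of time, and that of all measured genes was 0.01, -0.14, -0.23, 0.0030 and -0.02. At 5 h the median of the members thus hides ratios from -2.88 to 1.46, and it lies close to that of all genes.

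The receptor's signalling genes were sparser than the CD3 chains. Of a list of 22, 20 had a UMI, and Rasgrp1, which activates Ras below the receptor, led with 189.6 CPM in the unheated cells, ahead of Grap2 (99.6), an adaptor, and Fyn (71.1), a kinase. Lck, the kinase that phosphorylates CD3 in T cells, was scarce throughout, with 5.75 CPM over the unheated cells (0 to 13.2 CPM by group) and 3.06 to 11.9 CPM in the heated groups. At 5 h, 10 of 13 measured genes of this list stood lower and 3 higher (median -0.60), with 63.2% of all measured genes lower. Grap2 was at 30.4 against 98.5 CPM (log2 ratio -1.72, -2.31 to -1.02) and Rasgrp1 at 74.9 against 143.6 CPM (-0.96, -1.43 to -0.40), while Lat, the adaptor that links CD3 signals to Ras and calcium, was at 70.6 against 45.1 CPM (0.58, -0.21 to 1.66). At 15 h, 7 of 11 measured genes stood higher and 4 lower, with a median of 0.49, while 51.7% of all measured genes stood lower (median -0.02).

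The T-lineage transcription factors were led by Tcf7, which drives commitment to the T lineage, at 452 CPM in the unheated cells, with Ikzf1 at 274 and Gata3 at 231. At 5 h, 10 of 12 measured factors stood lower than control (median -0.63), as did 63.2% of all measured genes (median -0.23). Gata3 was at 105.4 against 215.4 CPM (-1.04, -1.45 to -0.61), whereas Tcf7 was at 441 against 336 CPM (0.38, 0.07 to 0.73). The Tcf7 control was the lowest unheated group, however, and the heated level lay inside the unheated range of 336 to 776 CPM. Before heating, the 45 °C arm stood at 776 CPM of Tcf7 and the 37 °C arm at 413 CPM (0.91, 0.59 to 1.22). At 15 h Gata3 was at 309 against 301 CPM. Tbx21, Eomes and Zbtb16 had no UMI in unheated cells.

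Close relatives of Slfn2 and Ms4a4b were scarce. Of 7 Schlafen genes, Slfn8 and Slfn3 came next to Slfn2 with 15.9 and 8.89 CPM in the unheated cells, and at 5 h all 4 measured Schlafen genes, Slfn2 among them, stood lower in heated cells, as did 63.2% of all genes. The intervals of the other 3 spanned 0: Slfn8 was at 5.14 against 16.4 CPM (-1.82, -3.16 to 0.28), and the log2 ratios of Slfn3 and Slfn9 were -0.67 (-1.91 to 1.41) and -2.18 (-3.74 to 0.39). Of 11 Ms4a genes none but Ms4a4b was measured at any time, and the next most counted, Ms4a6c and Ms4a6b, had 8.5 and 5.5 UMIs over all cells. Of 12 quiescence regulators, which include Slfn2, 5 of 8 stood lower at 5 h, a share like the 63.2% of all measured genes. Klf6, a zinc finger factor, was in contrast at 107.3 against 24.6 CPM (2.01, 1.00 to 3.58). That control was the lowest unheated group of Klf6, in a range of 24.6 to 64.9 CPM. The heated cells at 10 h stood at 141.9 CPM of Klf6. Foxp1, a forkhead factor of naive T cells, was at 164.6 against 295.4 CPM (-0.85, -1.19 to -0.48). Before heating, the 45 °C arm already stood at 229.5 CPM of Foxp1 and the 37 °C arm at 443.9 CPM (-0.94, -1.45 to -0.49). Foxo1, another forkhead factor of quiescent T cells, was at 64.5 against 41.02 CPM (0.59, -0.24 to 1.73). Tob1, an antiproliferative gene, was at 73.5 CPM in the heated cells at 10 h, where its control had no UMI, and at 0 to 26.96 CPM in the unheated groups.

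Other T cell surface genes were few. Cd27, a costimulatory receptor, was at 111.1 CPM over the unheated cells, and at 5 h at 49.4 against 118.96 CPM (-1.29, -1.81 to -0.66). Cd4, Cd8a, Cd8b1 and Il7r had no UMI in unheated cells. Markers of other blood cells were checked in the same groups. Of 18 myeloid markers 12 had no UMI in any cell, among them Lyz2, Elane, Spi1 and Csf1r, and the 18 summed to between 0 and 83.1 CPM in the unheated groups and 15.9 and 58.9 CPM in the heated ones, mostly from Fcgr3. Mpo and Prtn3, granule genes of early myeloid cells, had 14 and 6 UMIs, all in heated cells at 5 h. These were 2.06 and 0.88 CPM in a group of 6809101 UMIs. In the deepest unheated group (37 °C before heating) 3 UMIs would come to 6.61 CPM, so such levels could go unseen there. Of 16 NK cell markers 6 had none, and their sum varied between 7.58 and 164.7 CPM in the unheated and 14.5 and 96.2 CPM in the heated groups, with Klrd1 alone between 2.25 and 124.8 CPM in the unheated groups. Next came Klrk1 and Klrc1, with 2.09 and 2.61 CPM over the unheated cells and 29.1 and 10.4 CPM in the heated cells at 15 h. The 10 B cell markers reached at most 6.39 CPM in sum, led by Cd79a (42 UMIs, none of them in unheated cells), Vpreb1 (7.5) and Cd79b (2). The 7 erythroid and megakaryocyte markers reached at most 5.61 CPM, led by Hba-a1 (24 UMIs), Itga2b (8) and Hbb-bt (2.5). The labelled myeloid identity was thus not carried by these markers, and these lists' part in the results above was not tested. General leukocyte genes were abundant: Coro1a, an actin regulator, stood at 1144 CPM, Arhgdib at 844 and Rac2 at 522 in the unheated cells.

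Genes whose levels over the 10 groups most resembled a member were named by Pearson's r of log2 CPM among 2558 other genes with at least 10 UMIs in every group. The 10 points are single groups of very unequal depth, and 4 of them are heated, so these values are descriptive. Slfn2 was most like Gimap6 (r = 0.98), a GTPase gene of lymphocytes, then Psd4 (0.96) and Zbtb7a (0.95). Gimap6 had its lowest level, 62.1 CPM, in the heated cells at 5 h and its highest, 365 CPM, in those at 15 h, as did Slfn2. Cd3g was most like Cyc1 (0.96), Akr1b3 and Ran (0.94 each), Cd96 most like Stk39 (0.92), Afg3l1 and Ash2l (0.91 each), and Cd3e most like Ndufa3 (0.90), Esf1 (0.87) and Copb2 (0.85). Between Cd3e and Cd3g themselves r was 0.30. Cd7, Ms4a4b, Cd3d, Cd247 and Thy1 had too few UMIs in some group for this comparison.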

How the data were processed

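The values are estimated counts of molecules per gene and cell as deposited by the authors, not scaled to any total; per the labels' protocols the primer held a molecular barcode and 14 T bases. STAR and the mouse build mm10 appear, without a stated role, per the submitters' processing notes. How molecules were counted, with which annotation and with or without strand, and whether cells were filtered is not given in the sources used here. Of the members' nonzero values 2.39% were not whole, against 5.30% of all. Cd3e, Cd7, Slfn2 and Cd247 overlap other annotated genes, whose reads could not be told apart.

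The 45 °C 5 h group holds 223 cells. Counts were summed per group and divided by the group's total (CPM). Log2 ratios had 0.5 UMI added to each sum, and intervals used sums rounded to whole numbers. The conditional binomial interval and the log2 ratio were tested on simulated counts. No cell was left out except where cells were thinned to 5000 UMIs (222 cells of 45 °C 5 h and 47 of 45 °C 10 h were kept), and no doublet caller was run on the picked cells. No 2 libraries were identical. Promoters came from RefSeq (7 of 9 members had an entry), gene positions and exon lengths from GENCODE M21. The members and lists were chosen with earlier results of these data known. All 9 members were named, and of each list the 3 genes with the most UMIs, and genes at 50 CPM or more whose heated level lay 2-fold outside the unheated range; other genes were named after their values were seen. Alternatives covered scaling, fractional counts (by leaving out each value that was not whole), weighting of cells, control group, added UMIs, filter, depth and single cells. Python 3.11.15 was used with numpy 2.4.6, pandas 2.3.3, scipy 1.17.1 and matplotlib 3.10.9.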

Additional observations from a re-analysis of the deposited data

Results flagged for a closer look

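In the 3 groups of 6 cells, 22 combinations of gene and group were examined for a cell far from the others, and 6 stood out. For even measurements chance alone would mark about 1 in 20, a rate that does not apply to 3 of the 6, where a single cell held the only UMI of its group and so stood out by construction. In the 37 °C 10 h group, cell 2 had 559 CPM of Cd3g (20 UMIs) and the next cell 205.8 CPM, and cell 4 had 329 CPM of Cd7 (6 UMIs) and the next 66.6 CPM. In the 45 °C arm before heating, cell 5 had 439 CPM of Cd3e (14 UMIs) and the next 215.3 CPM. The cells with the only UMI of their group had 27.95 CPM of Cd3d in 37 °C 10 h cell 2, 31.4 CPM of Cd3d in 45 °C cell 5 before heating and 8.89 CPM of Thy1, from 0.5 UMI, in 37 °C 5 h cell 1.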

How the results depend on the processing

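An interval for the median log2 ratio of the 6 measured members was taken as the mean bounds of its 2 middle genes. It is not a counting interval of the median itself. The median moved beyond this interval in 2 of 57 settings. At 5 h the median moved to -0.74 with the 45 °C arm before heating as control. At 15 h it moved to 0.20 with cells thinned to 5000 UMIs. With 1 cell left out at a time it ranged from -0.12 to 0.16 before heating, -0.75 to -0.45 at 1 h, -0.36 to 0.0042 at 5 h (the latter without 37 °C 5 h cell 1), -0.69 to -0.23 at 10 h and -0.36 to -0.07 at 15 h. Of 312 single-gene values under the alternatives, 280 stayed within the interval of the reported value and 29 moved outside it. Changes of sign were counted only for ratios whose interval excluded 0, and 3 such values had the other sign: Cd96 at 1 h (0.00083 against all unheated groups), Ms4a4b at 1 h (0.14 against the 45 °C arm before heating) and Cd3g at 10 h (0.024 without 37 °C 10 h cell 2, with a range down to -0.84 without cell 3). The cause was not tested. Thinning leaves few UMIs per gene, and gave most of the moved values. The ratios of Slfn2 and Ms4a4b at 5 h stayed within their intervals under every alternative run. Median-of-ratios scaling differed from totals by -0.12 at 10 h and -0.14 at 15 h (log2), and with it 4 of the 6 ratios at 10 h were below 0. No paired analysis was possible because the numbers in the titles only count cells within a group and no result came from a test. The controls at 5 and 10 h had 6 cells each. The setting without cells under 5000 UMIs and those for the Cd3g to Cd3e ratio were chosen after seeing the data.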

Other observations

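The gene most like Slfn2 over the groups, Gimap6, belongs to a family of GTPases that sit together on mouse chromosome 6 and support lymphocyte survival. The other Gimap genes were looked up after this likeness had been seen, so their values are a description. In the heated cells at 5 h, Gimap1 stood at 70.7 CPM, Gimap5 at 48.02, Gimap6 at 62.1, Gimap8 at 38.3 and Gimap9 at 33.2 CPM, each below its lowest unheated group, which stood at 149.7, 98.6, 170.2, 44.9 and 50.5 CPM. At 15 h the heated cells stood at 182.7, 193.2, 365.4, 87.3 and 156.6 CPM of these genes, and for Gimap6 and Gimap9 this was above the highest unheated group (323 and 86.1 CPM). Gimap4 stood at 7.93 CPM in the heated cells at 5 h, also below its lowest unheated group (8.20 CPM), and Gimap7 at 5.14 CPM (7.58 CPM). Of all measured genes, 18.5% stood below all unheated groups at 5 h and 15.8% above them at 15 h. At 5 h the log2 ratios of Gimap4 and Gimap8 were -0.36 (-1.97 to 3.03) and -0.42 (-1.19 to 0.61). The intervals of Gimap1, Gimap5, Gimap6, Gimap7 and Gimap9 lay wholly on the negative side.

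Klrd1, an NK cell receptor gene, differed widely between unheated groups, from 2.25 CPM (37 °C 15 h) to 124.8 CPM (45 °C arm before heating).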
